A study of Arabidopsis thaliana with 18 samples.

Results

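The genes carried by the 2 organelle genomes of Arabidopsis leaf cells are described here across a temperature shift that activates the immune receptor RPS4. Members were chosen by identifier and by their summed count: a row of the count table belonged if its code started with ATCG (chloroplast genome) or ATMG (mitochondrial genome) and it held at least 10 counts over the 18 libraries. This gave 179 members among 32678 genes, of which 100 of 133 chloroplast rows and 79 of 146 mitochondrial rows qualified. The member with the lowest sum was ATCG00310, at 10 counts, for the chloroplast and ATMG01400, at 14 counts, for mitochondria, and the rows just outside, ATCG01310 and ATMG00990, each held 8 counts. The 100 rows left out held 28 counts of the chloroplast genome and 37 of the mitochondrial genome, and 22 and 53 of them were at 0.

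Leaves came from wild-type Col-0 and from a Col-0 line named 35S:RPS4-HS, which expresses the receptor constitutively from the viral 35S promoter and is hereafter called the RPS4 line. Controls and transgenic plants alike were kept at 28°C until an age of 3.5 weeks. Leaves were taken without a shift (0 h) or 4 or 8 h after a move to 19°C. Each of the 6 groups had 3 libraries of polyA-enriched, rRNA-depleted RNA, with 23876651 to 36291942 counts in genes per library. The labels name no plants or batches, so p-values measure the spread between these libraries, which may be technical in part, and time after the shift cannot be told apart from time of day. RPS4 itself stood at 665 to 2604 CPM (counts relative to the scaled library total) in the 9 libraries of the RPS4 line and at 12.2 to 20.1 CPM in Col-0.

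The chloroplast genome encodes part of the photosynthetic machinery, namely subunits of both photosystems, of the cytochrome b6f complex, of the ATP synthase and the large subunit of Rubisco, together with ribosomal RNAs and proteins and the core of its own bacterial-type RNA polymerase. That polymerase works with sigma factors and associated proteins that are made in the nucleus, and a nuclear phage-type polymerase transcribes other chloroplast genes. The mitochondrial genome encodes subunits of respiratory complexes and is transcribed by phage-type polymerases. In plant organelles a polyA tail marks RNA for decay, unlike in the cytosol, so libraries made from polyA RNA hold only the captured fraction of organelle RNA and do not measure its total.

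The deposited table gives codes without gene names. The reference annotation (RefSeq, TAIR10.1) lists 131 chloroplast and 71 mitochondrial genes by symbol but ties codes to descriptions only where a nuclear gene was matched to them. That named 19 members, 5 of the chloroplast and 14 of mitochondria. The others are given by code, with no role attached.

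The start of 3 annotated genes is shown because the 2 genomes differ in how far a read can be placed in them. Each line is 60 bases of TAIR10.1, 5′ to 3′ on the coding strand, with the start codon in capitals.
clpP (ATCG00670, chloroplast genome 71823-71882, minus strand): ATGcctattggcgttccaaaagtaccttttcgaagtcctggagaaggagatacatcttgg
cox3 (ATMG00730, mitochondrial genome 330714-330773, minus strand): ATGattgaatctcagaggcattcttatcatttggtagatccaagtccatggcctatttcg
atp1 (ATMG01190, mitochondrial genome 68562-68621, minus strand): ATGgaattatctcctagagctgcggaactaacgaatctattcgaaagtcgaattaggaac
The clpP stretch occurred once in the whole reference. The cox3 and atp1 stretches each occurred once in the mitochondrial genome and once more, identically, on nuclear chromosome 2, at 3312592-3312651 and 3362505-3362564. Over whole genomes, 65.8% of all 100-base words of the chloroplast sequence were found once, and 0.51% were also nuclear. Of the mitochondrial sequence 31.8% were found once and 67.6% also lay on chromosome 2. Reads that aligned to more than 1 place were not counted in genes by the authors, and they made up 1.96 to 2.85% of all entries counted per library. The reference differs from the authors' build, TAIR10, so these shares describe TAIR10.1 only.

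Chloroplast members took a small and variable share of each library. The share of all gene counts ran from 0.0536% to 0.164% over the 18 libraries. In Col-0 it was 0.164, 0.119 and 0.1096% at 0 h, 0.0768, 0.0536 and 0.0831% at 4 h, and 0.102, 0.104 and 0.128% at 8 h. In the RPS4 line it was 0.0836, 0.0751 and 0.156% at 0 h, 0.160, 0.136 and 0.114% at 4 h, and 0.145, 0.0650 and 0.103% at 8 h. Col-0 at 4 h thus lay below the RPS4 line at 4 h and below both other Col-0 groups in every library, whereas the lines overlapped at 0 h and at 8 h. The exact 95% binomial interval of a library's share was narrow, 0.162 to 0.165% for the first Col-0 library at 0 h, but it covers counting error only. Counting error is small beside the spread within a group, which reached 0.0443 percentage points (SD, n = 3) in the RPS4 line at 0 h.

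Mitochondrial members took 0.00854 to 0.0204% of gene counts, and every pair of groups overlapped. Group means were 0.0136% ± 0.00591, 0.0106% ± 0.00170 and 0.0142% ± 0.00173 (SD, n = 3) in Col-0 at 0, 4 and 8 h. They were 0.0125% ± 0.00185, 0.0131% ± 0.00428 and 0.0142% ± 0.00284 (SD, n = 3) in the RPS4 line. The ratio of chloroplast to mitochondrial counts ranged from 5.16 to 18.8 between libraries. Its highest values stood in single libraries, replicate 1 of the RPS4 line at 4 h (18.8), replicate 1 of Col-0 at 0 h (17.0) and replicate 3 of the RPS4 line at 0 h (14.2), so these 3 libraries stand apart in the balance of the 2 genomes.

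**Figure D1:**
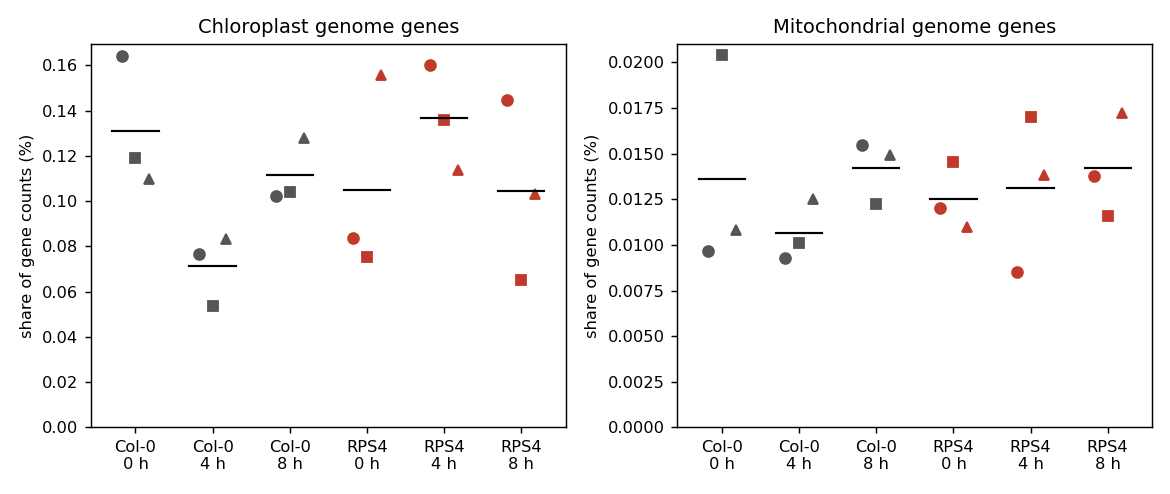
Share of all gene counts (%) in chloroplast members (left) and mitochondrial members (right) for each group on the horizontal axis, with Col-0 in grey and the RPS4 line in red. Circles, squares and triangles are replicates 1, 2 and 3, and bars are group means. For the chloroplast the 3 Col-0 libraries at 4 h lie at 0.0536 to 0.0831%, below the 0.114 to 0.160% of the RPS4 line at 4 h.

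A few chloroplast members held most of the reads. ATCG00020 alone held 24.3% of all chloroplast counts, and the 8 members with the most counts held 63.1%. Of the 88 chloroplast members that passed the filter on low counts, 71 reached a mean of 1 CPM and 21 a mean of 10 CPM. Mitochondrial members were lower, with 29 of 54 at 1 CPM and 3 at 10 CPM, and the highest, ATMG00020, averaged 14.6 CPM. CPM are not corrected for length, so they do not rank transcripts. The spread between replicates was wide. The median coefficient of variation within groups was 30.8% for tested chloroplast members and 34.5% for mitochondrial members, against 22.2% and 32.2% for nuclear genes within the middle range of the same levels.

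Per kilobase of coding length, clpP, which encodes the catalytic subunit of the Clp protease, had the highest level of the 3 chloroplast members described here by length. It averaged 30.8 RPKM (CPM divided by coding length in kilobases), between 20.0 and 46.8 over the libraries. cemA, which encodes an envelope membrane protein, averaged 12.4 RPKM (7.49 to 19.7). The ribosomal protein gene rpl20 averaged 3.16 RPKM (1.19 to 4.94), and the ranges of these 3 genes over the libraries did not overlap. In mitochondria, cox3, a subunit of cytochrome c oxidase, averaged 3.91 RPKM (1.15 to 6.79), and atp1, a subunit of the ATP synthase, 0.271 RPKM (0.0966 to 0.605). All 100-base words of both genes also lie in the nuclear sequence of TAIR10.1, and reads aligned to several places were not counted. These values may therefore understate the levels, but the authors aligned to TAIR10, and this was not tested.

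At 4 h after the shift, chloroplast members were higher in the RPS4 line than in Col-0. With edgeR's quasi-likelihood test on the whole table, a gene was called at an adjusted p under 0.01 and an absolute log2 fold change (log2FC) over 1. Of the 88 tested chloroplast members 29 rose and none fell, while 16.6% of all genes were called higher and 12.4% lower. All 88 had a log2FC above 0, with a median of 1.18, against -0.01 over all 20023 genes tested. In each of the 29 called members, all 3 RPS4 libraries exceeded all 3 Col-0 libraries. That is no separate support, since the calls rest on the same libraries. The share of reads aligned to several places also separated these groups, at 2.57 to 2.82% in the RPS4 line and 1.96 to 2.21% in Col-0, and its part in the result was not tested.

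ATCG00020, the member with the most counts, stood at 445, 508 and 313 CPM in the RPS4 line at 4 h and at 104, 49.2 and 155 CPM in Col-0. The groups did not overlap, although the libraries of each group varied widely. Its log2FC was 2.03 ± 0.54 (SE), the highest of the called members, with an edgeR adjusted p of 0.00444. ATCG00730 rose as much with less spread, from 2.32, 1.25 and 2.43 CPM in Col-0 to 10.998, 7.78 and 5.74 CPM in the RPS4 line (log2FC 2.03 ± 0.43, edgeR adjusted p = 0.000756). Among the 8 members with the highest mean CPM, 4 were called at 4 h and the log2FC of all 8 lay between 0.58 and 2.03. ATCG00480, next after ATCG00490 in mean CPM, was not called, at 167, 119 and 168 CPM in the RPS4 line against 93.7, 74.6 and 77.5 CPM in Col-0, with a log2FC of 0.89 ± 0.24 (SE), just under the fold threshold.

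The ratio of ATCG00020 to ATCG00480 counts, which needs no scaling, varied widely between libraries. It was 1.86 to 4.27 in the RPS4 line and 0.660 to 2.01 in Col-0 at 4 h, and these ranges overlapped. At 0 h it was 1.13 to 2.59 in the RPS4 line and 2.61 to 4.94 in Col-0. These 2 members were set side by side after their values were seen.

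**Figure D2:**
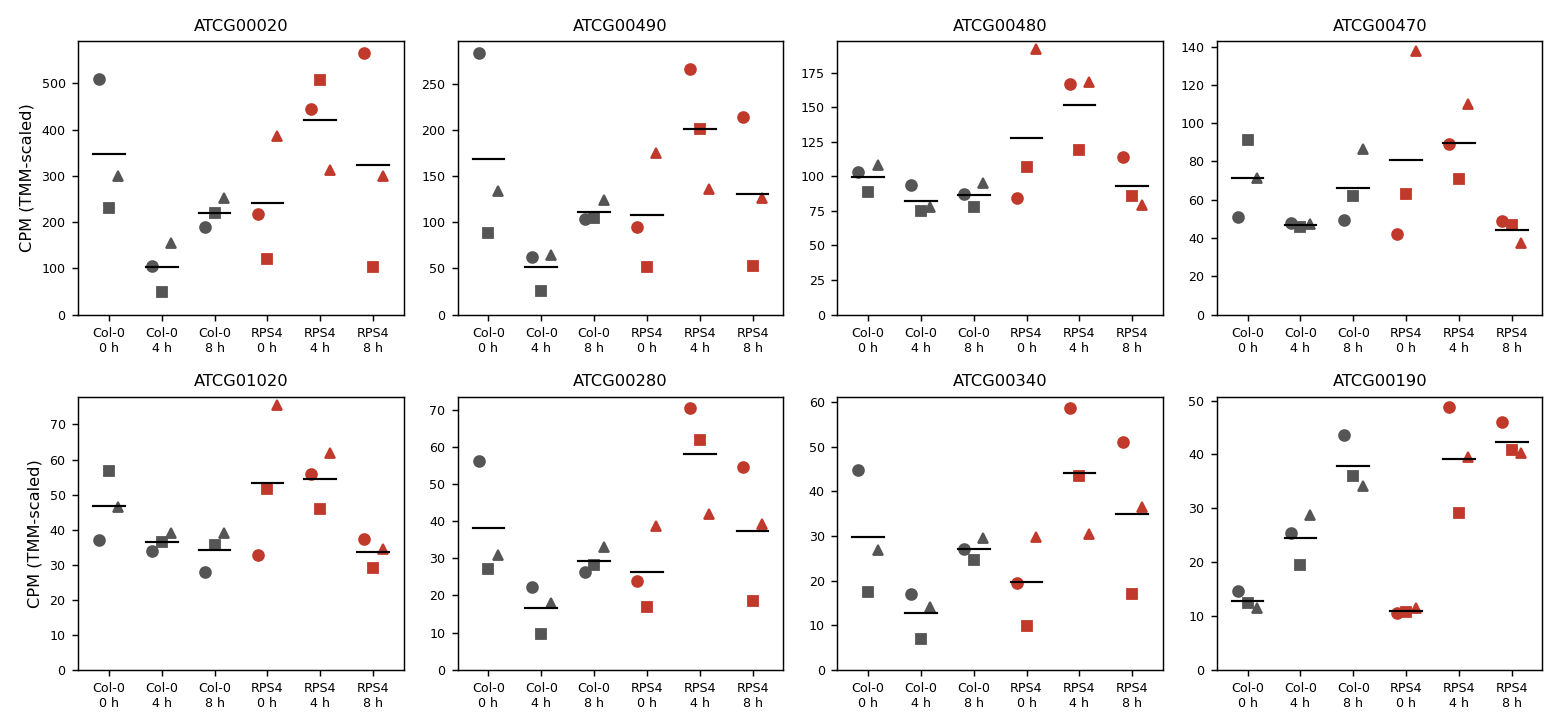
CPM, scaled by trimmed mean of M values, of the 8 chloroplast members with the highest mean, one panel each, by group (Col-0 grey, RPS4 line red). Circles, squares and triangles are replicates 1, 2 and 3, and bars are group means. ATCG00190 climbs after the shift in both lines, whereas ATCG00020 is lowest in the Col-0 libraries at 4 h and varies from 49.2 to 565 CPM overall.

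The log2FC of 4 annotated chloroplast members lay under the median of 1.18, and none of the 4 was called. cemA was at 13.6, 12.8 and 10.9 CPM in the RPS4 line and 7.20, 5.17 and 6.41 CPM in Col-0 (log2FC 0.99 ± 0.17, edgeR adjusted p = 0.000117), past the p threshold but not the fold threshold. clpP was at 26.1, 18.8 and 27.7 CPM against 15.1, 11.8 and 17.2 CPM, without overlap (log2FC 0.72 ± 0.18, edgeR adjusted p = 0.00255), and was not called for the same reason. The ribosomal protein gene rpl20 had a log2FC of 0.99 ± 0.42 (SE), with an edgeR adjusted p of 0.0588. ATCG00430 had a log2FC of 0.95 ± 0.34 (SE), with an edgeR adjusted p of 0.0281. A note in the annotation describes it as photosystem II reaction center protein G. The annotation's 15 chloroplast genes named psb, for photosystem II, include no psbG, so this description was not taken as its role.

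How many members passed at 4 h depended on the scaling and on single libraries. Normalization factors were 0.797 to 0.838 in the RPS4 line at 4 h and 1.09 to 1.13 in Col-0, so scaling by library total alone moved the median of all genes to -0.43. The chloroplast median was then 0.76 and 7 members were called, all among the 29, and calls over all genes went from 3315 higher and 2490 lower to 2659 and 4237. The count was 9 without Col-0 replicate 2 at 4 h, 15 without Col-0 replicate 3 at 4 h and 11 without RPS4 replicate 1 at 4 h. With the summed chloroplast counts as library size, which removes any change common to the genome, none of the 88 was called by edgeR. In the main test 68 of them had an unadjusted p under 0.05, beside 11392 of all 20023 genes tested. DESeq2 and limma voom called 33 and 28 members.

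The change from 0 h differed between the lines at 4 h for 16 chloroplast members, all with a positive difference (the change in the RPS4 line minus that in Col-0), while 15% of all genes were called higher and 10.2% lower in this interaction. The median log2 difference was 1.26 over the 88 tested members and -0.01 over all genes, and the median change from 0 h was -0.72 in Col-0 and 0.62 in the RPS4 line. ATCG01080 led with 3.56 ± 0.59 (SE, edgeR adjusted p = 0.000119). It was called lower in Col-0, from 1.597, 1.595 and 1.54 CPM to 0.208, 0.592 and 0.583 CPM, and higher in the RPS4 line, from 0.571, 0.330 and 0.662 CPM to 2.45, 2.07 and 1.01 CPM. Neither pair of groups overlapped. The lowest of these values is that of 6 counts. ATCG00700 followed at 2.91 ± 0.64 (SE, edgeR adjusted p = 0.00149). The number of members ranged from 9 without Col-0 replicate 2 at 4 h to 31 without RPS4 replicate 3 at 0 h, and was 10 without RPS4 replicate 1 or 2 at 0 h or RPS4 replicate 1 at 4 h.

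No member passed the test between the lines at the other times. At 0 h edgeR called none of the 88 chloroplast and none of the 54 mitochondrial members, and DESeq2 and limma voom also called none. An unadjusted edgeR p under 0.05 was found for 5 and 3 of them, beside 1923 of all 20023 genes tested. Over all genes 0.00999% were higher and 0% lower. At 8 h edgeR again called none of the members of either genome, where 26.6% of all genes were higher and 30.1% lower. Here 10 chloroplast and 3 mitochondrial members had an unadjusted edgeR p under 0.05, beside 15853 of all 20023 genes tested. By limma voom none was called, and DESeq2 called 5 chloroplast members, all lower. The nearest to a call was ATCG00370, with a log2FC of -1.81 ± 0.59 (SE) and an edgeR adjusted p of 0.0102. Leaving out Col-0 replicate 1 at 8 h gave 1 chloroplast call higher and 3 lower, and leaving out RPS4 replicate 1 or 3 at 0 h gave 3 lower. Without Col-0 replicate 1 at 0 h, any 1 replicate of Col-0 at 4 h, Col-0 replicate 3 at 8 h or RPS4 replicate 1 at 8 h, 1 was lower. The chloroplast median at 8 h was -0.02 and the mitochondrial median 0.33.

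**Figure D3:**
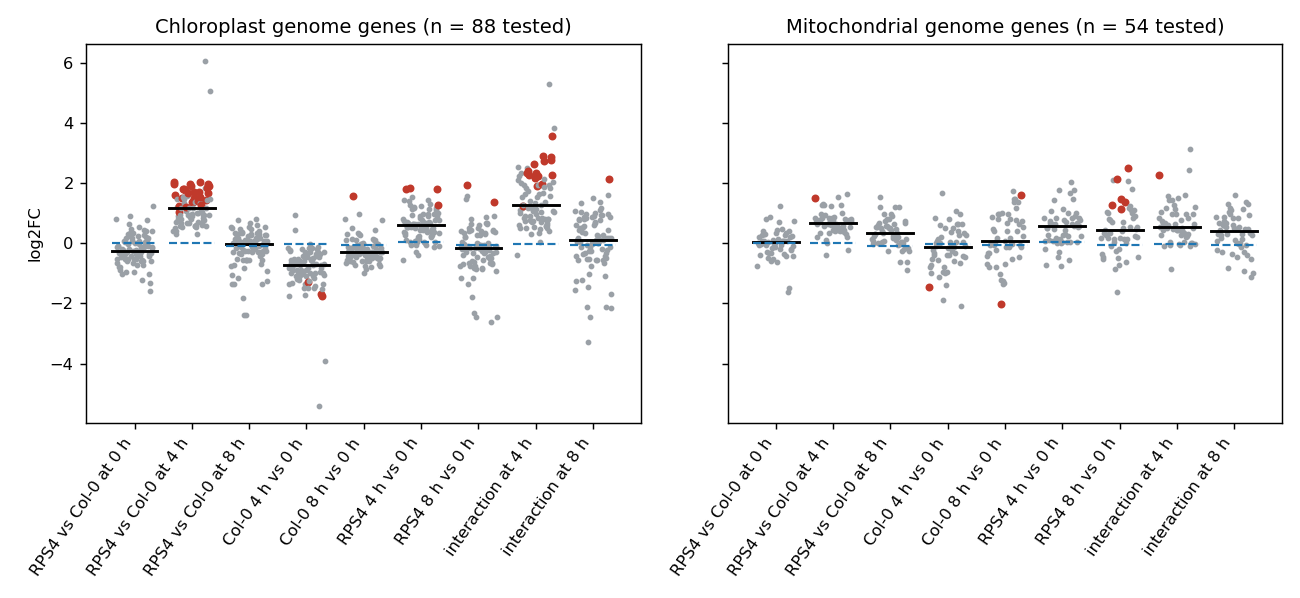
log2FC of every tested member in the 9 comparisons, chloroplast on the left and mitochondria on the right, with members called in red and the others in grey. Black bars are the members' medians and dashed blue bars the median of all 20023 genes tested. The chloroplast median is 1.18 for the line difference at 4 h and -0.02 at 8 h.

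In Col-0 few chloroplast members passed the test at 4 h against 0 h, although of the 88 tested all but 2 had a log2FC below 0. An unadjusted edgeR p under 0.05 was found for 38 of them, beside 7862 of all 20023 genes tested. Of the 88, 3 fell, ATCG01080 and ATCG01060 the most, and none rose, where 3.87% of all genes were higher and 4.79% lower. The median over the 88 tested members was -0.72 against -0.02 over all genes. ATCG01060 went from 3.75, 1.66 and 1.98 CPM to 0.969, 0.559 and 0.745 CPM (log2FC -1.70 ± 0.43, edgeR adjusted p = 0.00786). These calls depended on single libraries. None was left without Col-0 replicate 3 at 0 h or replicate 3 at 4 h, 1 fell without Col-0 replicate 1 at 4 h, 1 member rose and none fell without Col-0 replicate 2 at 4 h, and 5 fell without RPS4 replicate 1 or 2 at 8 h.

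ATCG00190 was higher after the shift in both lines. In Col-0 it stood at 14.6, 12.4 and 11.4 CPM at 0 h, 25.3, 19.4 and 28.8 CPM at 4 h, and 43.6, 35.9 and 34.1 CPM at 8 h. In the RPS4 line it stood at 10.5, 10.7 and 11.5 CPM at 0 h, 48.8, 29.1 and 39.6 CPM at 4 h, and 46.0, 40.8 and 40.3 CPM at 8 h. Each time point lay above 0 h without overlap in both lines. At 8 h the rise was 1.57 ± 0.18 in Col-0 (log2FC with SE, edgeR adjusted p = 2.53e-06) and 1.96 ± 0.18 in the RPS4 line (edgeR adjusted p = 3.86e-08). The difference between these rises was 0.39 ± 0.25 (SE), with an edgeR adjusted p of 0.177. At 4 h the rise was 0.94 ± 0.18 in Col-0, not called, and 1.84 ± 0.18 in the RPS4 line, and the difference of 0.90 ± 0.25 (edgeR adjusted p = 0.00831) stayed under the fold threshold. The call at 8 h in each line and at 4 h in the RPS4 line held in all 27 alternatives run.

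Few other chloroplast members were called over time. ATCG00190 was the only one called in Col-0 at 8 h, where 10.5% of all genes were higher and 11.8% lower. In the RPS4 line at 4 h, 4 of 88 rose and none fell, where 18.3% of all genes were higher and 14.8% lower. The 4 became 2 without RPS4 replicate 2 at 0 h or RPS4 replicate 1 at 4 h, and 11 without RPS4 replicate 3 at 0 h. At 8 h ATCG00190 and ATCG01080 rose, where 26.5% of all genes were higher and 29.7% lower. That count was 1 without RPS4 replicate 3 at 8 h, and without RPS4 replicate 1 at 0 h 1 member rose and 4 fell. ATCG01080 was also the 1 member whose change from 0 h differed between the lines at 8 h, by 2.13 ± 0.57 (SE, edgeR adjusted p = 0.00339). Over all genes 24.9% were higher and 27.3% lower there. The line difference of ATCG01080 itself was -1.58 ± 0.41 (SE) at 0 h and 0.55 ± 0.40 (SE) at 8 h, neither called. Without Col-0 replicate 1 at 0 h, Col-0 replicate 2 at 0 h, Col-0 replicate 1 at 8 h or RPS4 replicate 1 at 0 h, 2, 2, 3 and 4 members differed.

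ATCG00950 and ATCG01180 varied widely within groups. ATCG00950 ran from 0.0564 to 34.9 CPM. Its libraries stood at 17.5, 4.02 and 0.147 CPM in Col-0 at 0 h and at 0.850, 28.7 and 4.604 CPM in the RPS4 line at 4 h. ATCG01180 ran from 0.132 to 19.3 CPM and was high in the same libraries, RPS4 replicate 3 at 0 h (19.3 CPM) and RPS4 replicate 2 at 4 h (14.9 CPM). The line difference of ATCG00950 was 6.06 ± 2.28 (log2FC with SE) at 4 h and -1.36 ± 1.72 at 8 h, and neither was called. Both were singled out after their values were seen.

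The nuclear genes that serve organelle transcription and RNA decay moved at 8 h, when the chloroplast members did not pass the test. Of 29 such genes, listed from textbook knowledge, 23 fell and 1 rose in the RPS4 line against Col-0 at 8 h, read beside the 30.1% and 26.6% of all genes. At 4 h, when the chloroplast members were higher, 1 of the 29 fell and none rose, with a median of -0.32. Over all genes 12.4% were lower and 16.6% higher at 4 h. Of the 29, 2 fell without Col-0 replicate 3, RPS4 replicate 1 or RPS4 replicate 2 at 4 h. Among nuclear genes for photosystem, antenna and small Rubisco subunits, 44 of 48 fell at 8 h, where 30.1% of all genes fell. Their median was -2.04. At 4 h 3 of these 48 fell, where 12.4% of all genes did. The 4 leaf markers fell with them at 8 h, from summed levels of 21447 to 30946 CPM in Col-0 to 7078 to 8054 CPM in the RPS4 line, and their part in these falls was not tested. In bulk leaves fewer cells of a type and less RNA per cell cannot be told apart. The 5 markers of root, seed, flower, meristem and anther summed to at most 75.4 CPM, in the RPS4 line at 0 h, and the seed marker CRA1 and the anther marker LTP12 were at 0 throughout.

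All 11 listed nuclear genes for the plastid transcription complex were lower in the RPS4 line at 8 h, beside 30.1% of all genes. Their median log2FC was -2.97. PTAC10, a component of that complex, stood at 157, 119 and 128 CPM in Col-0 and at 13.1, 10.6 and 11.7 CPM in the RPS4 line (log2FC -3.52 ± 0.15, edgeR adjusted p = 6.15e-12). PTAC6 and FSD3, the latter an iron superoxide dismutase of the complex, fell by 3.53 and 3.10 on the log2 scale. In Col-0 the same list rose with the shift, 10 of 11 being higher at 8 h than at 0 h, where 10.5% of all genes were higher and 11.8% lower. For the RPS4 line 6 of 11 were lower at 8 h than at 0 h, where 26.5% of all genes were higher and 29.7% lower.

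Sigma factors direct the plastid-encoded polymerase to its promoters. Of their 6 genes, 5 were lower and 1 higher in the RPS4 line than in Col-0 at 8 h. Over all genes 30.1% were lower and 26.6% higher there. Against 0 h in the RPS4 line all 6 were lower at 8 h, beside 29.7% of all genes. SIG4 showed the largest line difference of the 29 at 8 h. It stood at 74.6, 94.99 and 82.5 CPM in Col-0 and 1.25, 0.930 and 0.993 CPM in the RPS4 line (log2FC -6.32 ± 0.19, edgeR adjusted p = 2.88e-13). It was also the 1 gene of the 29 called between the lines at 4 h (log2FC -1.70 ± 0.15). SIG6 was lower by 2.78 on the log2 scale. SIG5 was higher, at 34.4, 30.04 and 34.7 CPM in the RPS4 line against 11.8, 8.48 and 21.3 CPM in Col-0 (log2FC 1.25 ± 0.27). Both SIG5 groups lay far under their own 0 h levels of 377 to 678 CPM in Col-0 and 619 to 837 CPM in the RPS4 line.

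For 9 enzymes and factors of organelle RNA decay, 6 genes were lower in the RPS4 line than in Col-0 at 8 h. None was higher, where 30.1% of all genes were lower and 26.6% higher. Against 0 h in the RPS4 line 4 were lower and 1 higher at 8 h, beside 29.7% and 26.5% of all genes. At 8 h RNE, the chloroplast endoribonuclease E, stood at 90.9, 79.0 and 76.0 CPM in Col-0 and 10.5, 8.71 and 8.15 CPM in the RPS4 line (log2FC -3.17 ± 0.13, edgeR adjusted p = 3.63e-12). Ribonuclease J (RNJ) was lower by 3.00 on the log2 scale. RIF10, the chloroplast polynucleotide phosphorylase, and the exoribonuclease RNR1 were lower by 1.77 and 1.92. mtPNPase, its mitochondrial counterpart, had a log2FC of -0.27 ± 0.16 (SE) and was not called. Of the 3 phage-type polymerases, the chloroplast enzyme RPOTp was lower, at 46.1, 48.1 and 46.4 CPM against 128, 70.5 and 89.3 CPM in Col-0 (log2FC -1.03 ± 0.20). The log2FC of RPOTm and RPOTmp were 0.33 ± 0.18 and 0.40 ± 0.17 (SE), neither called.

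**Figure D4:**
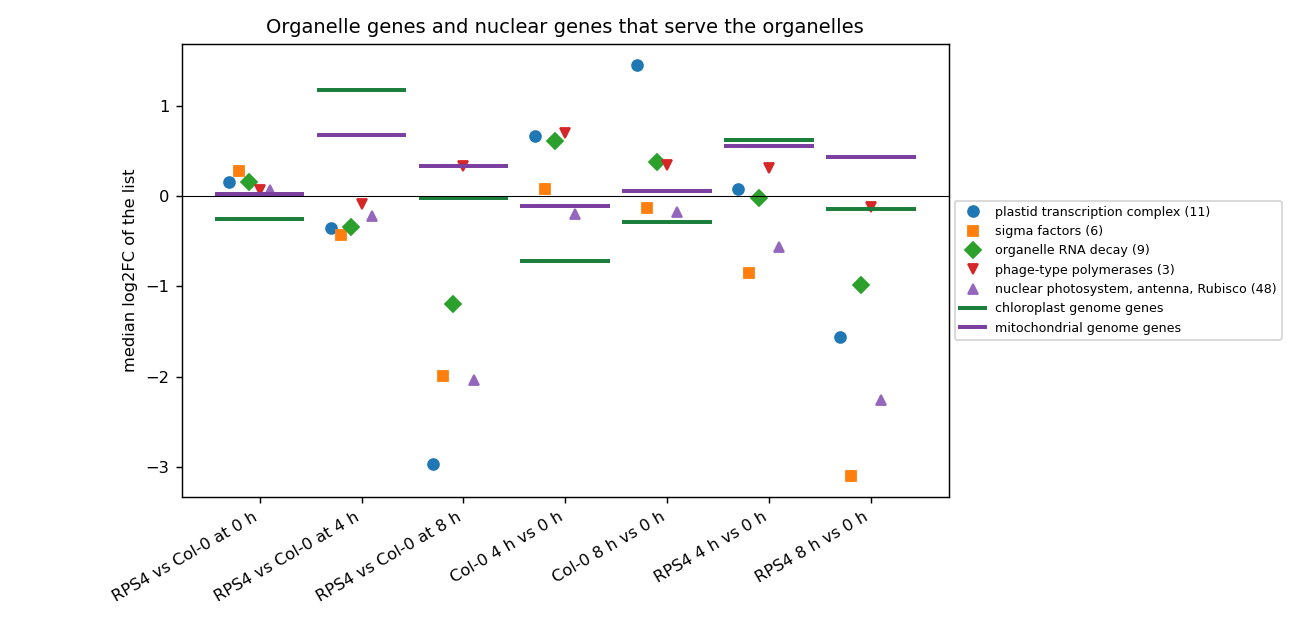
Median log2FC of the tested chloroplast members (green bars) and mitochondrial members (purple bars) and of 5 lists of nuclear genes (symbols, with the number of genes in the legend) in 7 comparisons. At 8 h the nuclear genes for the plastid transcription complex lie at -2.97 and the chloroplast members at -0.02. At 4 h the chloroplast members stand at 1.18.

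In mitochondria 1 of 54 tested members was higher in the RPS4 line at 4 h and none lower, where 16.6% of all genes were higher and 12.4% lower. ATMG00020, the member with the most counts, stood at 23.2, 22.2 and 18.8 CPM in the RPS4 line and 6.89, 6.25 and 9.27 CPM in Col-0, without overlap (log2FC 1.52 ± 0.29, edgeR adjusted p = 0.000309). The median over the 54 was 0.68. Under library totals it was 0.26 and ATMG00020 stayed called. ATMG00020 was also the 1 mitochondrial member called in Col-0 at 4 h, where it fell from 22.1, 22.0 and 17.3 CPM (log2FC -1.45 ± 0.29, edgeR adjusted p = 0.00145), a call lost without Col-0 replicate 2 at 4 h. Over all genes 3.87% were higher and 4.79% lower there. That count was 2 without Col-0 replicate 1 at 0 h or Col-0 replicate 2 at 8 h. In the RPS4 line at 0 h it had been 10.1, 11.2 and 14.9 CPM, and its change differed between the lines by 2.28 ± 0.40 (SE, edgeR adjusted p = 0.000237) at 4 h, in all 27 alternatives. It was the 1 mitochondrial member called in this interaction, where 15% of all genes were higher and 10.2% lower. The count of such members was 2 without Col-0 replicate 1 or 3 at 0 h, RPS4 replicate 1 at 0 h or at 4 h, or RPS4 replicate 2 at 8 h. At 8 h edgeR called none in the interaction, where 24.9% of all genes were higher and 27.3% lower. An unadjusted edgeR p under 0.05 was found for 2 members, beside 14253 of all 20023 genes tested. DESeq2 and limma voom called none, but edgeR called 1 without RPS4 replicate 2 at 8 h.

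Over time more mitochondrial members rose in the RPS4 line at 8 h than in any other comparison, 6 of 54 with none lower. This is 11.1%, beside 26.5% of all genes called higher. The annotated ones were ATMG00560, an OB-fold protein matched to a nuclear locus on chromosome 2, and ATMG00410, ATPase subunit 6-1. ATMG00560 went from 0.953, 0.330 and 0.626 CPM to 2.82, 1.66 and 4.04 CPM (log2FC 2.13 ± 0.55, edgeR adjusted p = 0.00200). ATMG00410 went from 1.08, 1.15 and 1.03 CPM to 3.18, 2.03 and 2.77 CPM (log2FC 1.28 ± 0.39, edgeR adjusted p = 0.00708). In both, all 3 libraries at 8 h lay above all 3 at 0 h, as in all 6 members called here. That is no separate support, since the calls rest on the same libraries. No call was left without RPS4 replicate 3 at 8 h, 2 were left without RPS4 replicate 3 at 0 h, and 3 without RPS4 replicate 2 at 0 h or RPS4 replicate 1 at 8 h. In Col-0 at 8 h these 2 had log2FC of 1.01 ± 0.53 and 0.98 ± 0.39 (SE), not called, and their changes were not shown to differ between the lines (differences of 1.12 ± 0.75 and 0.30 ± 0.55).

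Few other mitochondrial members were called over time. In Col-0 at 8 h ATMG01370 rose, from 1.91, 5.38 and 2.24 CPM to 12.2, 8.75 and 8.33 CPM (log2FC 1.61 ± 0.44, edgeR adjusted p = 0.00585), and ATMG00516 fell (log2FC -2.01 ± 0.51), where 10.5% of all genes were higher and 11.8% lower. The count of 2 became 0 without Col-0 replicate 2 at 8 h, 1 without Col-0 replicate 3 at 0 h or Col-0 replicate 1 or 3 at 8 h, and 4 without Col-0 replicate 2 at 0 h or RPS4 replicate 1 at 4 h. In the RPS4 line at 4 h edgeR called none of 54, where 18.3% of all genes were higher and 14.8% lower. DESeq2 called 2 and limma voom none. An unadjusted edgeR p under 0.05 was found for 10 members, beside 12485 of all 20023 genes tested. Leaving out RPS4 replicate 1 at 4 h gave 3 calls, and each of 13 other libraries 1 or 2. That library had the lowest mitochondrial share of all 18, and ATMG01080, F0-ATPase subunit 9, stood there at 6.95 CPM against 15.9 and 13.8 CPM in its group. ATMG01280, related to subunit II of cytochrome c oxidase, was at 0 there, where 3 counts would be 0.150 CPM, and at 1.56 and 1.09 CPM in the other two.

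**Figure D5:**
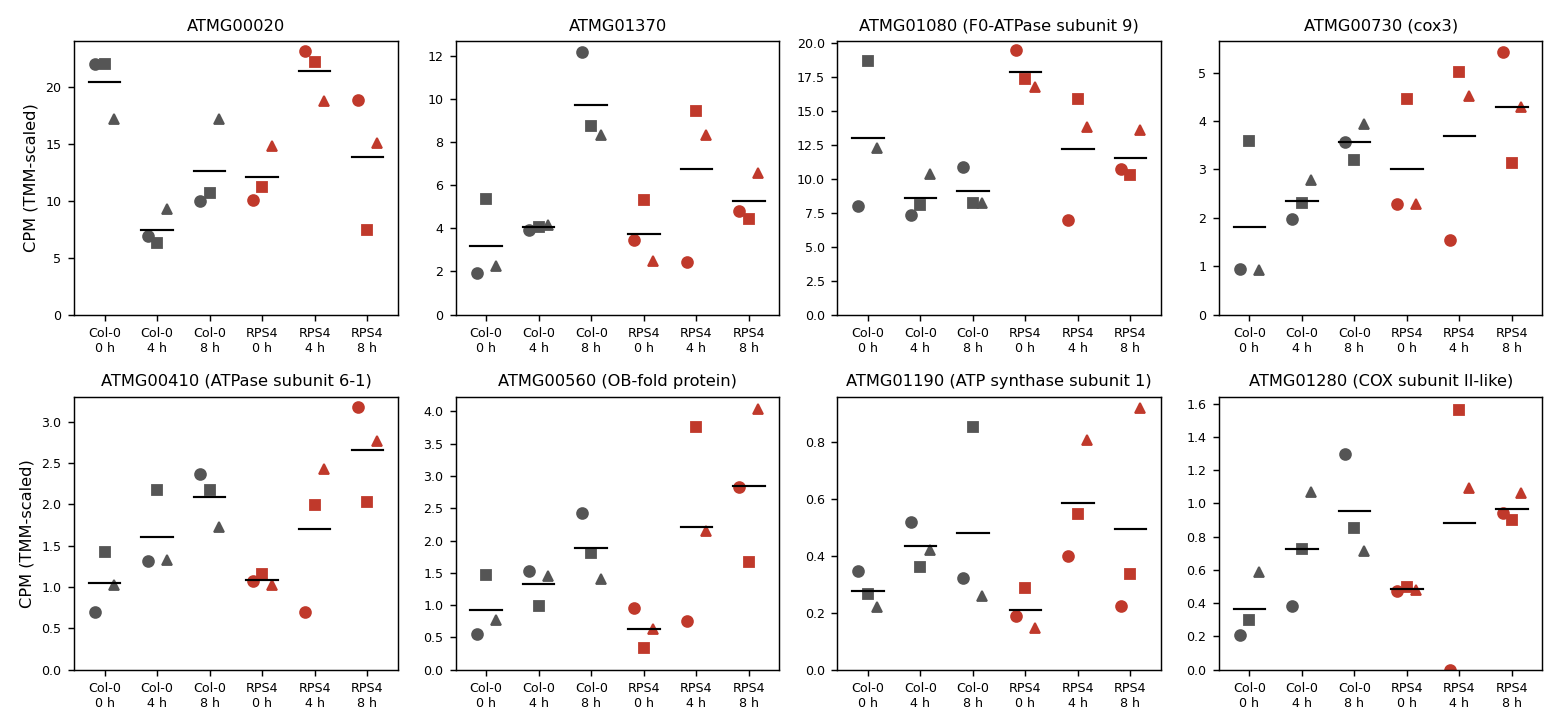
CPM, scaled by trimmed mean of M values, of 8 mitochondrial members by group (Col-0 grey, RPS4 line red), chosen as those described in the text. Circles, squares and triangles are replicates 1, 2 and 3, and bars are group means. ATMG00020 at 4 h lies at 18.8 to 23.2 CPM in the RPS4 line and 6.25 to 9.27 CPM in Col-0, and ATMG01280 is at 0 in RPS4 replicate 1 at 4 h.

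Many mitochondrial genes have a matched nuclear locus that also held reads. Leaving out nuclear pseudogenes, the annotation ties 46 loci on chromosome 2 to 45 mitochondrial codes. Those loci held 24434 counts in all, against 14101 in the codes, of which 14 were at 0. ATMG01190, ATP synthase subunit 1, held 209 counts and its nuclear match AT2G07698 (chromosome 2, 3361463-3364127) held 2069. The reverse was true of ATMG00730, cox3, with 1567 counts against 301 in AT2G07687 (chromosome 2, 3311654-3312651). ATMG00410 held 864 counts and its match AT2G07741 none. AT2G07715, the match of ATMG00560, stood at 3.36, 3.42 and 2.72 CPM in the RPS4 line at 0 h and 6.23, 6.45 and 9.54 CPM at 8 h, above 0 h in every library like its mitochondrial counterpart. In Col-0 AT2G07715 also lay above 0 h in every library, at 1.67, 4.19 and 2.72 CPM at 0 h and 6.77, 4.73 and 4.75 CPM at 8 h. Whether a read at such a pair came from one or the other cannot be told apart from these counts.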

How the data were processed

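RNA from leaves of Col-0 and the RPS4 line was depleted of rRNA, reverse transcribed with oligo-dT primers and sequenced as paired ends by the authors. Per the labels, reads were aligned to TAIR10 with TopHat2 2.0.10 after FastQC 0.11.2 and counted per gene with HTSeq, whose version and strand setting are not given in the sources used here. The deposited values are raw counts for 32678 genes plus 5 lines for reads in no single gene (48.5 to 49.2% of all lines in no feature), which stayed out of library sizes and tests.

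Groups came from the labels. The members and lists were chosen with earlier results of these data known. Counts of the whole table were fitted with edgeR 4.0.16 (R 4.3.3) as 1 quasi-likelihood model over the 18 libraries, with TMM factors and filterByExpr, which left 20023 genes, 88 chloroplast and 54 mitochondrial members among them. The 12 and 25 other members are given no test. Benjamini-Hochberg adjustment ran over all genes tested, and calls used an adjusted p under 0.01 and an absolute log2FC over 1. CPM use the TMM-scaled totals, and intervals of shares are exact binomial at 95%. Named members were the 8 chloroplast and 6 mitochondrial ones with the highest mean, the called members with the largest changes and the annotated ones. The values of 1 annotated chloroplast member are not reported here. Role groups planned from symbols could not be formed, since most codes carry no name. Standard errors were derived from the F statistic. No 2 libraries of a group were alike, with a chi-square per gene of 12.6 to 118. Scripts were tested on simulated data for the line difference at 4 h, with 100 genes changed 2-fold and 100 changed 4-fold. There edgeR called 30% of the 2-fold and 81% of the 4-fold changes. A member that was not called may therefore still have changed. Alternatives were RLE factors, library totals, own-genome totals, 2 other filters, DESeq2 1.42.0, limma voom (limma 3.58.1), a replicate block, only the groups compared, and each library left out.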

Additional observations from a re-analysis of the deposited data

Results flagged for a closer look

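The change from 0 h to 4 h differed between the lines, by the edgeR interaction test, for 16 of the 88 tested chloroplast members and for 1 of the 54 mitochondrial members, all higher, where 15% of all genes were called higher and 10.2% lower. The largest were ATCG01080, with a log2 difference of 3.56, and ATCG00700, with 2.91, in the chloroplast, and ATMG00020, with 2.28, in mitochondria. At 8 h the change differed for 1 chloroplast member, ATCG01080, with a log2 difference of 2.13, where 24.9% of all genes were higher and 27.3% lower. All these differences are positive, so the RPS4 line changed upward from its own 0 h level relative to Col-0. For ATCG01080 the line difference was -1.58 ± 0.41 at 0 h and 0.55 ± 0.40 at 8 h (log2FC with SE), neither called. Groups of 3 libraries are too small for a test of single outlying libraries.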

How the results depend on the processing

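Counts of called members follow in the order chloroplast then mitochondria, main count first. For the line difference at 4 h the chloroplast count was 29, 7 under library totals, 0 with own-genome totals and 9 to 32 when 1 library was left out, and the mitochondrial count of 1 became 0 with own-genome totals. At 8 h the chloroplast count of 0 became 4 under library totals, 5 with own-genome totals, 1 without a filter, 5 with DESeq2, 2 with the replicate block, 2 with only the groups compared and 0 to 4 with a library left out, and the mitochondrial count of 0 became 1 with own-genome totals. In Col-0 at 4 h, 3 became 1 with own-genome totals, 7 with DESeq2, 5 with the replicate block, 0 with only the groups compared and 0 to 5 with a library left out, and 1 became 4, 2 and 2 with own-genome totals, the 1 CPM filter and DESeq2 and 0 to 2 with a library left out. In Col-0 at 8 h the mitochondrial count of 2 became 10 with own-genome totals, 0 with only the groups compared and 0 to 4 with a library left out. In the RPS4 line at 4 h, 4 became 2, 1, 8 and 12 under library totals, own-genome totals, DESeq2 and the replicate block and 2 to 11 with a library left out, and 0 became 2 with own-genome totals, 2 with DESeq2 and 0 to 3 with a library left out. At 8 h, 2 became 5 with DESeq2 and 1 to 5 with a library left out, and 6 became 3 under library totals and 0 to 7 with a library left out. For the interaction at 4 h, 16 became 9, 0 and 29 under library totals, own-genome totals and DESeq2 and 9 to 31 with a library left out, and 1 became 2 with DESeq2 and 1 to 2 with a library left out. At 8 h, 1 became 3, 4, 2 and 2 under library totals, own-genome totals, no filter and DESeq2 and 1 to 4 with a library left out, and 0 became 1 with own-genome totals and 0 to 1 with a library left out. The 29 nuclear genes for transcription and decay gave 1 at 4 h, against 2, 5, 2 and 2 with RLE, library totals, no filter and DESeq2 and 1 to 2 with a library left out. They gave 1 in Col-0 at 4 h, against 2 under library totals, 2 without a filter and 1 to 4 with a library left out (4 without Col-0 replicate 1 at 0 h), and 3 for the interaction at 4 h, against 10 under library totals. The count of 24 at 8 h stayed at 23 or 24 in every alternative. With own-genome totals 4 members turned at 4 h, ATCG00740 to -0.12, ATCG00140 to -0.17, ATCG00380 to -0.19 and ATCG00150 to -0.33, and the interaction of ATCG00150 turned to -0.41. Over all lines of the table as denominator, chloroplast shares averaged 0.0635, 0.0347 and 0.0540% in Col-0 and 0.05096, 0.0658 and 0.0504% in the RPS4 line at 0, 4 and 8 h. Mitochondrial shares were 0.00662, 0.00518 and 0.00690% and 0.00608, 0.00632 and 0.00685%. Without ATCG00020 the chloroplast share was 0.0950% in Col-0 at 0 h, 0.0868% at 8 h and 0.102% in the RPS4 line at 4 h.

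The labels do not say whether the replicate number pairs the libraries. Deviations of same-numbered libraries correlated at -0.15 to 0.22 over genes, above 0.1 in 6 of 21 pairs, which does not settle it. The replicate block (12 chloroplast calls against 4 in the RPS4 line at 4 h) is given here only. The shares without rRNA genes were not run, since the codes carry no such names. Causes of these shifts were not tested, apart from those fixed by an alternative's own construction. Own-genome totals remove any change common to a genome, and their p-values were adjusted among all genes tested. Most members hold few reads, and 3 counts equal 0.0845 to 0.150 CPM.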
